A study of Mus musculus with 6 samples.

Results

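The genes described here form the folding and export machinery of the endoplasmic reticulum (ER), together with the sensors and transcription factors that adjust it. They were chosen by name, as 46 gene symbols for ER chaperones, disulfide and collagen-processing enzymes, the unfolded protein response, the integrated stress response, ER-associated degradation, the translocon and COPII transport. The choice was made with earlier results of these data known. All 46 symbols were among the 46095 rows of the count table, and all 46 passed the filter on low counts that left 14757 genes for testing.

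Proteins that enter the secretory pathway are threaded into the ER through the Sec61 translocon, folded by chaperones and oxidised by disulfide isomerases before COPII vesicles carry them to the Golgi. When unfolded proteins accumulate, the sensors IRE1, ATF6 and PERK start the unfolded protein response (UPR): IRE1 splices Xbp1 mRNA, ATF6 is cleaved to a transcription factor, and PERK phosphorylates eIF2alpha and favours translation of ATF4. ATF4 and its targets are shared with the integrated stress response (ISR), which other eIF2alpha kinases also start. Differentiating adipocytes export adipokines, lipases and a collagen-rich matrix through this route.

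RNA was sequenced from brown adipocytes induced in culture from the stromal vascular fraction of brown adipose tissue of C57BL/6 mice aged 5 weeks, that is, from the non-adipocyte cells of the digested fat pad. Both groups were differentiated for 8 days, first for 2 days with IBMX at 0.5 mM, insulin at 5 µg/mL and rosiglitazone, dexamethasone and triiodothyronine at 1 µM each, then for 6 days without dexamethasone and IBMX. The groups were 3 libraries labelled control and 3 labelled U-IRX3ov, a genotype whose name gives overexpression of the homeobox gene IRX3. Library titles abbreviate the groups as CTRL and KI. The sources used here do not give the construct, the promoter or Cre that drives it, the control genotype or any pooling of animals. They do not say either that replicate libraries are separate cultures or mice, so p-values measure only the spread between these libraries, which may be technical.

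Library totals ran from 20094799 to 26755870 counts. Irx3 itself had a log2 fold change of 0.27 ± 0.13 (SE) in U-IRX3ov against control cells, which did not pass the test (edgeR adjusted p = 0.112). Its level was low, at 4.78, 5.42 and 5.12 CPM in control and 6.27, 6.31 and 5.89 CPM in U-IRX3ov libraries. These groups did not overlap, as for 50.8% of all genes tested. Whether reads of a construct would count under this symbol is not known. Of the genes that define adipocytes, Adipoq, Plin1 and Fabp4 stood at 1199, 779 and 12693 CPM in control, and Ucp1, which defines brown fat, rose from 19.7 CPM to 240 CPM. CPM are counts relative to the library size, here scaled by TMM, the trimmed mean of M-values, which allows for differences in library composition. Of the adipocyte markers 10 of 13 tested genes rose, as did 12 of 14 brown fat markers (2 fell) and 5 of 9 endothelial markers. Falls were seen for 11 of 12 fibroblast, 14 of 14 leukocyte and 6 of 10 pericyte and smooth muscle markers (2 rose). Among all 14757 genes tested 20.2% rose and 21.1% fell at an adjusted p under 0.05 in edgeR. In these bulk libraries fewer cells of a type and less RNA per cell cannot be told apart.

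Most ER folding genes were lower in U-IRX3ov cells, 6 of 7 genes of the integrated stress response did not pass the test, and 4 genes, led by the ER oxidase Ero1l, were higher. Of the 46 genes 29 fell and 4 rose at an adjusted p under 0.05 (edgeR quasi-likelihood test, Benjamini-Hochberg over all genes tested), while 13 did not pass. Among all 14757 genes tested 21.1% fell and 20.2% rose, 41.3% in either direction, against 63.0% of the 46 that fell and 8.70% that rose. Their median log2 fold change was -0.20, beside -0.0047 over all genes tested. The falls were moderate: 14 genes fell by at least 25%, and the lowest fold, that of Sdf2l1, was a fall by 39.7%. Control and U-IRX3ov libraries did not overlap in CPM for 35 of the 46 genes, against 50.8% of all genes tested.

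**Figure D1:**
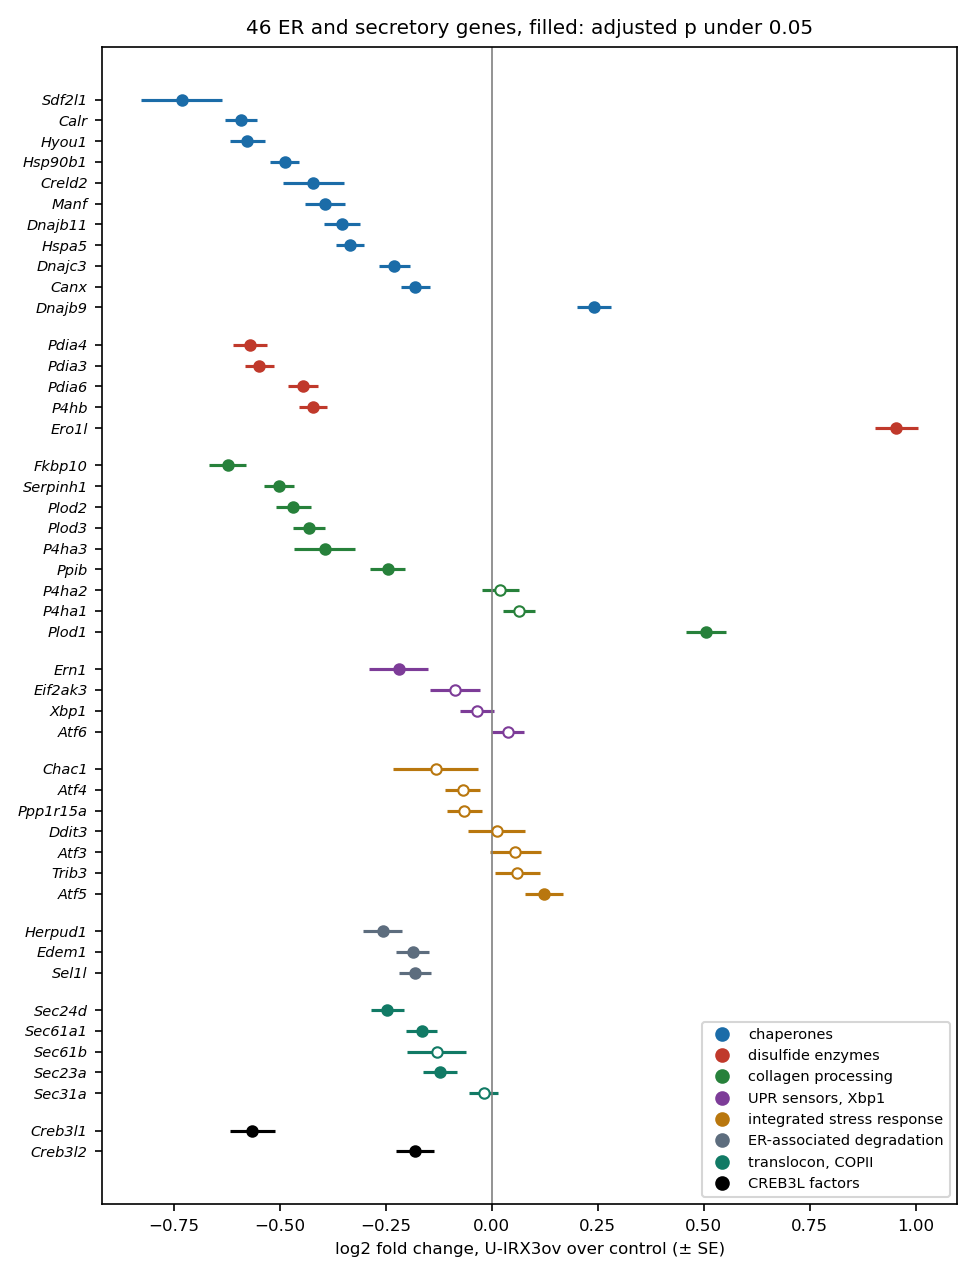
Log2 fold change of U-IRX3ov over control for the 46 genes on the horizontal axis, ordered within functional groups, with bars for the standard error. Filled points passed an adjusted p of 0.05; most chaperones, disulfide isomerases and collagen enzymes lie left of 0, the integrated stress response genes lie around 0, and Ero1l lies at 0.95.

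**Figure D2:**
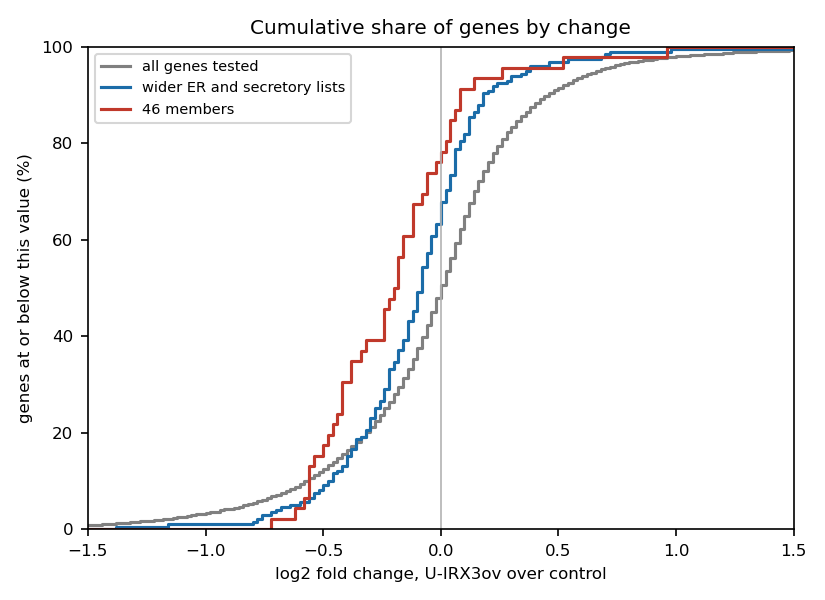
Percentage of genes with a log2 fold change at or below the value on the horizontal axis. Curves show all 14757 genes tested (grey), 199 further genes (blue) and the 46 genes (red). The further genes come from ER, secretory, UPR, collagen-modification and ATF4-target lists. The red curve passes its midpoint at -0.20 and the grey curve near 0.

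Of the 11 chaperones and cofactors 10 fell and 1 rose (median log2 fold change -0.39). Hspa5, which encodes BiP, the Hsp70 chaperone that also holds the UPR sensors inactive, had 1476, 1518 and 1465 CPM in the control libraries and 1191, 1153 and 1194 CPM in the U-IRX3ov libraries. All 3 U-IRX3ov libraries lay below all 3 controls, and Hspa5 fell by 20.7% (log2 fold change -0.33 ± 0.03, adjusted p = 3.64e-09). Hsp90b1, the ER Hsp90 known as GRP94, had 1265, 1227 and 1203 CPM in control and 891, 860 and 882 CPM in U-IRX3ov libraries. It fell by 28.7% (adjusted p = 2.68e-12). Calr, the lectin chaperone calreticulin, went from 1010, 962 and 1000 CPM to 692, 630 and 650 CPM, and fell by 33.6% (log2 fold change -0.59 ± 0.04, adjusted p = 3.44e-13). Its membrane-bound partner Canx, calnexin, fell by only 11.7%, and the 95% intervals of the fold did not overlap (0.63 to 0.70 for Calr, 0.84 to 0.93 for Canx).

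Cofactors and smaller chaperones followed. Hyou1, the nucleotide exchange factor that serves BiP, had 152, 152 and 153 CPM in control and 107, 99.6 and 99.0 CPM in U-IRX3ov libraries (log2 fold change -0.58 ± 0.04, adjusted p = 3.63e-12). Sdf2l1, a partner of the BiP co-chaperone ERdj3, had the lowest log2 fold change of the 46, at -0.73 ± 0.10, with 17.4, 19.8 and 20.002 CPM in control and 13.0, 10.9 and 10.4 CPM in U-IRX3ov libraries. Per kilobase of exon it was the least abundant of the chaperone mRNAs in control, at 17.2 CPM. Creld2 and the secreted ER stress factor Manf fell by 0.42 and 0.39 on the log2 scale, and the BiP co-chaperones Dnajb11 and Dnajc3 fell by 0.35 and 0.23.

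Dnajb9, the BiP co-chaperone ERdj4 and a target of spliced XBP1, was the chaperone that rose. It had 168, 171 and 159 CPM in control and 200, 186 and 203 CPM in U-IRX3ov libraries (log2 fold change 0.24 ± 0.04, adjusted p = 2.15e-05). The groups did not overlap, and the log2 ratio of Dnajb9 to Hspa5 went from between -3.20 and -3.14 in control to between -2.64 and -2.56 in U-IRX3ov libraries.

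**Figure D3:**
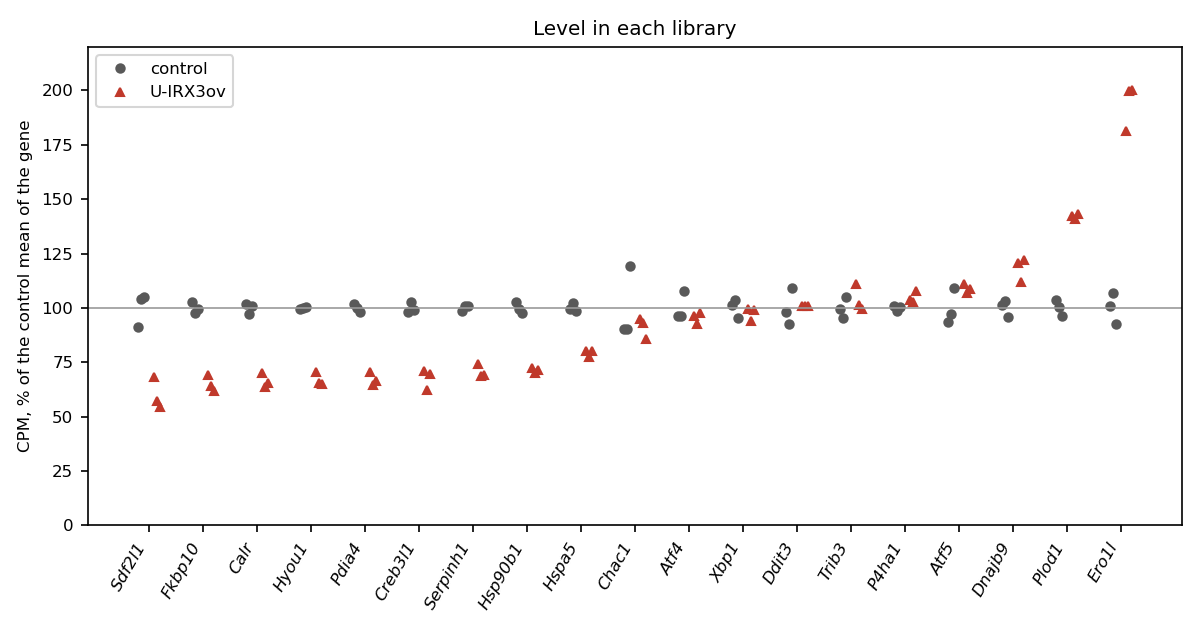
CPM of 19 genes in each library as a percentage of the gene's control mean (grey circles, 3 control libraries; red triangles, 3 U-IRX3ov libraries), ordered by fold change. Triangles lie below all circles for the 9 genes at the left, within the range of the circles for Ddit3, and at 181% to 200% for Ero1l.

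The ER stress response element (ERSE), through which ATF6 is known to act, was found in promoters of several chaperones. RefSeq promoters of GRCm38.p6, from 250 bases before to 50 bases after each annotated start, were found for 39 of the 46 genes. They were not matched for Hyou1, Manf, Plod2, Fkbp10, Atf6, Sec61a1 and Creb3l1. The full ERSE, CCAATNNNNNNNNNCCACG on either strand, was present in 7 of 39, or 17.9%, against 0.137% of 27025 genes in the same table. The 46 were chosen by name as ER and stress genes, so this higher share is not a result of these data. The same holds for the 1-mismatch and ERSE-II shares below. All 7 genes with the full ERSE (Hspa5, Hsp90b1, Calr, Canx, Dnajc3, Creld2 and Pdia6) fell. Of all 46 genes, including those without a matched promoter, 29 fell. The 7 belong to the chaperones and disulfide enzymes, where 10 of 11 and 4 of 5 genes fell with or without the element. The falls of these 7 therefore do not set the element apart. With 1 mismatch outside the 9 free bases, the ERSE (these 7 included) was found in 13 of 39, or 33.3%, against 1.72% of all genes. Of those 13, 11 fell and 2 (Ddit3 and Sec31a) did not pass. The promoter of Sdf2l1, which had the lowest fold of the 46, held neither form. A match describes letters in a window and says nothing about binding. The windows around the full matches are shown for these 7 genes only, and the lower chaperones Sdf2l1 and Dnajb11 had no full match. They run 5′ to 3′ on the gene's strand, with the ERSE in capitals, and those of Hspa5 and Hsp90b1 are shorter since the longer window meets an annotated exon.
Hspa5, chr2:34772020-34772048, plus strand: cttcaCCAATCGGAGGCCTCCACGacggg
Hsp90b1, chr10:86705633-86705661, minus strand: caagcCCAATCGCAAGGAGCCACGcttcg
Calr, chr8:84847050-84847118, minus strand: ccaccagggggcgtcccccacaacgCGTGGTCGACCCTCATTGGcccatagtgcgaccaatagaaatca
Canx, chr11:50325775-50325843, minus strand: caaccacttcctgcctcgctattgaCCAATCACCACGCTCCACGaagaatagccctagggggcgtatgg
Pdia6, chr12:17266466-17266534, plus strand: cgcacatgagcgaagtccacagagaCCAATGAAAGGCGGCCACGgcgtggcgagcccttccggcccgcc
Dnajc3, chr14:118937802-118937870, plus strand: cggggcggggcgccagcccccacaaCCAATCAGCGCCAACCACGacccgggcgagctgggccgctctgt
Creld2, chr15:88819495-88819563, plus strand: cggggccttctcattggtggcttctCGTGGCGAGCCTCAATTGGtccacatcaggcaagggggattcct
In Calr and Creld2 the element lies in the reverse orientation. Hsp90b1 has a further full element, reversed, from base -107 to base -89 before its start.

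**Figure D4:**
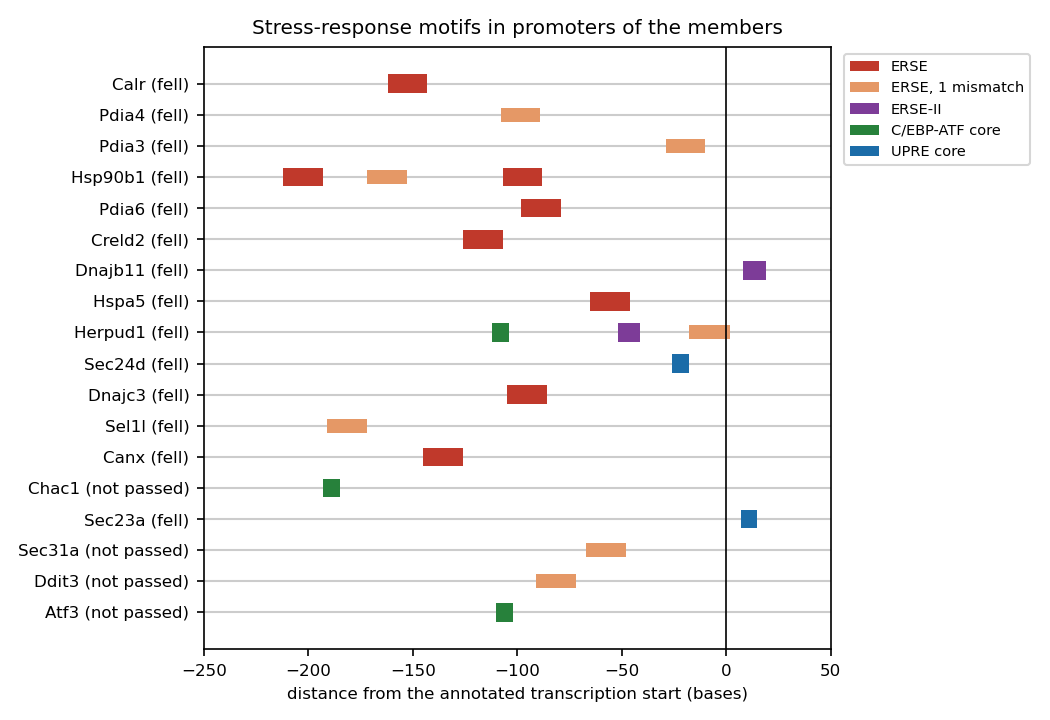
Positions of stress-response motifs in the promoters of 18 genes, in bases from the annotated transcription start, with genes ordered from the lowest to the highest fold change and the result of the test in brackets. Full ERSE matches (red) lie between 212 and 47 bases before the start, all in genes that fell, as did 29 of the 46. These genes are chaperones or disulfide enzymes, groups in which 10 of 11 and 4 of 5 genes fell.

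Protein disulfide isomerases fell and the oxidase that recharges them rose. Pdia4 had 210, 205 and 202 CPM in control and 145, 133 and 136 CPM in U-IRX3ov libraries, and fell by 32.7% (log2 fold change -0.57 ± 0.04, adjusted p = 2.80e-12). Pdia3, which works with calnexin and calreticulin on glycoproteins, fell by 31.6%, Pdia6 by 26.5% and P4hb, the archetypal isomerase PDI and the beta subunit of collagen prolyl 4-hydroxylase, by 25.3%. Ero1l, the oxidase that passes electrons from PDI to oxygen, had 190, 202 and 175 CPM in control and 343, 378 and 379 CPM in U-IRX3ov libraries. It rose 1.94-fold (log2 fold change 0.95 ± 0.05, adjusted p = 2.17e-10), the largest change in either direction among the 46 genes. Within a library the log2 ratio of Ero1l to P4hb was -2.27, -2.18 and -2.37 in control and -0.999, -0.85 and -0.83 in U-IRX3ov libraries. Per kilobase of exon, Ero1l went from 35.8 to 69.3 CPM and P4hb from 318 to 238 CPM.

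ERO1L is known to be induced by hypoxia-inducible factor as well as by ER stress. On a list of 16 textbook hypoxia-inducible genes 15 rose and 1 fell, with a median log2 fold change of 1.02. Among them Egln3, a HIF prolyl hydroxylase, rose from 30.3 to 151 CPM and Pdk1, a pyruvate dehydrogenase kinase, from 56.9 to 150 CPM, while the peptide hormone Adm fell from 101 to 71.1 CPM. Their part in the rise of Ero1l was not tested. The RefSeq promoter of Ero1l held no full ERSE, 1-mismatch ERSE or ERSE-II. It held the core of the hypoxia response element, ACGTG, once in reverse, shown in capitals because Ero1l changed the most. This motif was chosen after the fold changes were seen, lies within the UPRE core, overlaps the ERSE-II of Herpud1, and is common: 18 of the 39 promoters held it, 11 of them of genes that fell, against 21.8% of all genes.
Ero1l, chr14:45318606-45318660, minus strand: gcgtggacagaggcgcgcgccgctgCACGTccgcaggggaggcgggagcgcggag

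Collagen-processing genes fell in 6 of 9 cases and rose in 1 (median log2 fold change -0.39). Serpinh1, the collagen-specific chaperone HSP47, had 1087, 1112 and 1111 CPM in control and 817, 756 and 764 CPM in U-IRX3ov libraries, and fell by 29.4% (adjusted p = 3.90e-12). Per kilobase of exon it was the most abundant of the 46 mRNAs in control, at 452 CPM, ahead of Hspa5 at 352 CPM. Fkbp10, the prolyl isomerase FKBP65 of collagen folding, went from 171, 163 and 166 CPM to 115, 106 and 103 CPM (log2 fold change -0.62 ± 0.04, adjusted p = 1.98e-12). Ppib, cyclophilin B, fell by 15.6%.

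The hydroxylase families divided. Among the lysyl hydroxylases Plod2, which modifies telopeptide lysines, fell by 27.7% and Plod3 fell by 25.8%. Plod1, which acts on helical lysines, rose instead, from 56.8, 55.1 and 52.8 CPM to 78.0, 77.3 and 78.6 CPM (log2 fold change 0.51 ± 0.05, adjusted p = 1.04e-09). The log2 ratio of Plod1 to Plod2 lay between -1.67 and -1.62 in control and between -0.69 and -0.64 in U-IRX3ov libraries. Among the catalytic subunits of prolyl 4-hydroxylase P4ha3 fell by 23.9%. P4ha1, with 176, 172 and 175 CPM in control and 180, 179 and 188 CPM in U-IRX3ov libraries, did not pass (log2 fold change 0.06 ± 0.04, adjusted p = 0.171), and neither did P4ha2 (0.02 ± 0.04). The interval of the P4ha1 fold, 0.992 to 1.10, lay above that of its partner P4hb, 0.713 to 0.783.

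These falls stood beside lower levels of the cargo and of stromal markers. Of 16 collagens and matrix genes 15 fell and 1 rose (median log2 fold change -0.50). Col1a1 went from 3473 to 2274 CPM and Col3a1 from 2008 to 1040 CPM, while Col5a3 rose from 765 to 917 CPM. The summed CPM of the list went from between 27305 and 27726 in control to between 19717 and 20742. The 14 fibroblast markers summed to between 5260 and 5309 CPM in control and between 3907 and 4113 in U-IRX3ov libraries, the 10 pericyte and smooth muscle markers to between 6033 and 6272 and between 3807 and 4142, and the 16 leukocyte markers to between 501 and 615 and between 163 and 241. The 10 endothelial markers, of which Cldn5 was at 0 in all libraries, summed to between 40.8 and 44.8 CPM in control and between 62.5 and 66.6 CPM in U-IRX3ov libraries. No fibroblast, pericyte or leukocyte marker was at 0 in all libraries. Against these, the 11 chaperones summed to between 5003 and 5089 CPM in control and between 3770 and 3957 CPM in U-IRX3ov libraries, and the 9 collagen-processing genes to between 2235 and 2265 and between 1702 and 1798. The part of stromal or leukocyte RNA in the lower ER genes was not tested. Of the 6 plasma cell markers Sdc1, a cell-surface proteoglycan, was the 1 gene tested, and it fell from 87.7 to 59.8 CPM (log2 fold change -0.56 ± 0.05). The list summed to between 87.5 and 88.3 CPM in control and between 57.5 and 62.7 CPM in U-IRX3ov libraries. Igkc and Ighm were listed at 0 in all 6 libraries, as was Rnf5, a broadly used ubiquitin ligase, and Jchain, Mzb1 and Prdm1 had at most 0.343 CPM on average in either group.

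**Figure D5:**
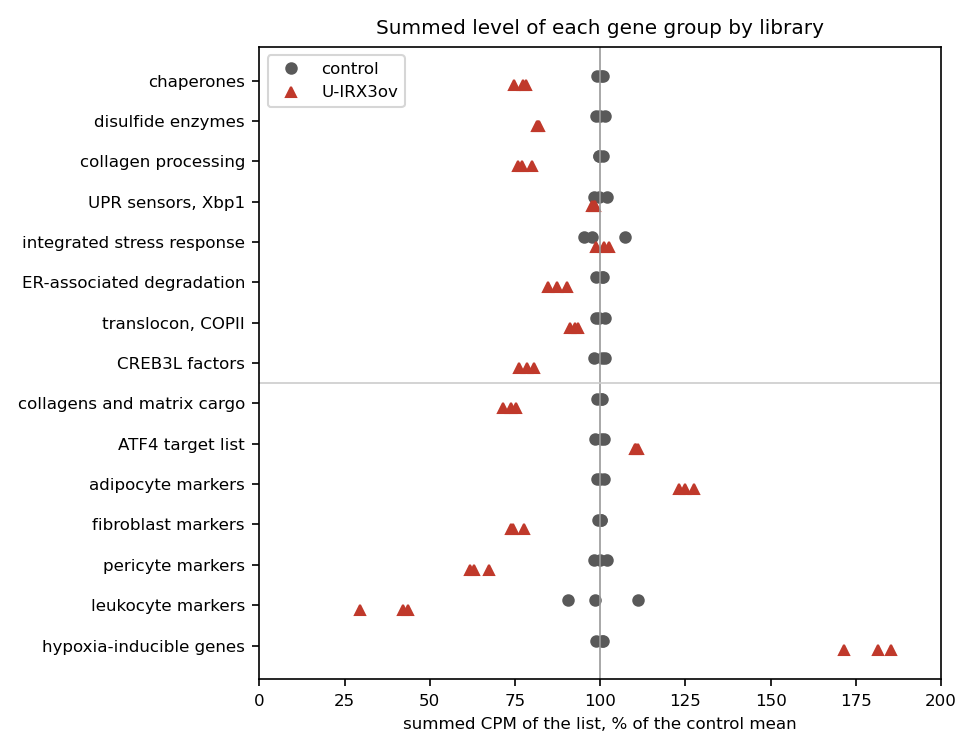
Summed CPM of each gene group in each library as a percentage of the control mean of the group (grey circles, control; red triangles, U-IRX3ov), with the groups of the 46 genes above the line and comparison lists below it. Chaperones lie at 74.6% to 78.3% in U-IRX3ov libraries, fibroblast markers at 73.9% to 77.8% and integrated stress response genes at 98.6% to 102%.

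Of the UPR sensors and Xbp1, 1 of 4 passed the test. Ern1, which encodes the kinase and RNase IRE1alpha, fell by 14.1% (log2 fold change -0.22 ± 0.07, edgeR adjusted p = 0.0119), from 30.9, 33.3 and 31.9 CPM to 26.3, 30.5 and 25.8 CPM. This call was lost without U-IRX3ov library 1 (adjusted p = 0.0673) or 3 (adjusted p = 0.0814), over a range of 0.00183 to 0.971 across its alternatives. Atf6 and Eif2ak3, the gene of PERK, did not pass, with log2 fold changes of 0.04 ± 0.04 and -0.09 ± 0.06. Xbp1, the transcription factor whose mRNA IRE1 splices, had 178, 181 and 167 CPM in control and 175, 165 and 174 CPM in U-IRX3ov libraries, overlapping groups with a fold of 0.976 (95% interval 0.922 to 1.03). Counts per gene hold spliced and unspliced Xbp1 together, so IRE1 activity is not measured by them.

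Of the integrated stress response genes 1 of 7 passed, and that call did not hold under several alternatives. Atf4, the central transcription factor, had 345, 346 and 387 CPM in control and 345, 332 and 351 CPM in U-IRX3ov libraries (log2 fold change -0.07 ± 0.04, adjusted p = 0.197). ATF4 is regulated mainly through translation, which mRNA counts do not show. Ddit3, which encodes CHOP, had 30.6, 28.9 and 34.1 CPM in control and 31.5, 31.5 and 31.4 CPM in U-IRX3ov libraries. Its U-IRX3ov libraries lay within the control range, and the 95% interval of its fold was 0.916 to 1.11. Trib3, a pseudokinase induced by ATF4 and CHOP, had 62.2, 59.6 and 65.7 CPM in control and 69.5, 63.4 and 62.3 CPM in U-IRX3ov libraries (adjusted p = 0.391).

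Chac1, a glutathione-degrading enzyme and sensitive ATF4 target, had 15.1, 15.2 and 20.04 CPM in control and 15.9, 15.6 and 14.4 CPM in U-IRX3ov libraries (adjusted p = 0.316). Control library 3 was the highest of the 6 for Chac1, Atf4, Ddit3 and Creld2. Ppp1r15a, the GADD34 phosphatase subunit that reverses eIF2alpha phosphorylation, and Atf3 had folds of 0.956 (0.903 to 1.013) and 1.04 (0.955 to 1.13). Atf5, a factor with ISR-controlled translation, had 288, 299 and 335 CPM in control and 341, 329 and 335 CPM in U-IRX3ov libraries. The groups overlapped at control library 3, and the rise of 0.12 ± 0.04 on the log2 scale (edgeR adjusted p = 0.0331) was lost under upper-quartile scaling (adjusted p = 0.0689) and in 5 of 6 fits without 1 library (adjusted p = 0.0534 to 0.202; it was 0.000123 without control library 3), over a range of 0.000123 to 1 across its alternatives.

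Promoters of Atf3 and Chac1, shown for comparison with the ERSE genes, held the core of the C/EBP-ATF element, TTGCATCA, through which ATF4 is known to act. On either strand it was found in 3 of 39 promoters (Atf3, Chac1 and Herpud1), or 7.7%, against 1.03% of all genes. As for the ERSE, the genes were chosen by name as stress genes, so this higher share is not a result of these data. Atf3 and Chac1 did not pass the test and Herpud1 fell. The element is in capitals.
Atf3, chr1:191183411-191183468, minus strand: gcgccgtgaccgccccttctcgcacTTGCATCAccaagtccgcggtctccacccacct
Chac1, chr2:119351024-119351081, plus strand: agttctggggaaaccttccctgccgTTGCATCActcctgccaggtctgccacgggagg

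ER-associated degradation, which returns misfolded proteins to the cytosol for destruction, fell in all 3 of its genes. Herpud1, an organiser of the retrotranslocation complex, fell by 16.3% (log2 fold change -0.26 ± 0.05, adjusted p = 3.59e-05). Edem1, which marks misfolded glycoproteins, fell by 12.1% and Sel1l, the adaptor of the HRD1 ligase, by 11.8%. The Herpud1 promoter carried the shorter element ERSE-II, ATTGGNCCACG, which Dnajb11 had too, from base 8 to base 18 after its start. These were 5.1% of the 39 promoters against 0.0444% of all genes.
Herpud1, chr8:94386352-94386412, plus strand, ERSE-II in capitals: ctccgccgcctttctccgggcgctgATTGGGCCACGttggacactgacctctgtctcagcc

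Of the translocon and COPII genes 3 of 5 fell, each by less than Hspa5. Sec24d, the COPII cargo adaptor known for procollagen export, fell by 15.7% (adjusted p = 1.15e-05) and the channel subunit Sec61a1 by 10.8%. Sec23a, the inner coat partner of Sec24 proteins, fell by 8.07% (edgeR adjusted p = 0.0163), a call lost without control library 1 (adjusted p = 0.105) or U-IRX3ov library 1 (adjusted p = 0.118), over a range of 0.00704 to 1 across its alternatives. Sec61b did not pass (log2 fold change -0.13 ± 0.07, adjusted p = 0.140), and passed without control library 1 (edgeR adjusted p = 0.0497). The outer coat gene Sec31a did not pass either (-0.02 ± 0.03). The UPRE core, TGACGTGG on either strand, lay in 2 of the 39 promoters, those of Sec23a and Sec24d, against 0.714% of all genes. Since the genes were chosen by name, this share is not a result of these data either.

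Creb3l1 and Creb3l2 encode membrane-bound transcription factors, OASIS and BBF2H7, known for their part in matrix secretion in bone and cartilage. Creb3l1 had 72.4, 75.9 and 73.3 CPM in control and 52.4, 45.98 and 51.3 CPM in U-IRX3ov libraries, and fell by 32.4% (log2 fold change -0.56 ± 0.05, adjusted p = 1.02e-09). Creb3l2 fell by 11.7%, and the 95% intervals of the fold did not overlap (0.627 to 0.729 and 0.828 to 0.941).

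Further genes, from lists of ER, secretory, UPR, collagen-modification and ATF4-target genes that share no member with the 46, were counted in the same fit. These lists too were chosen with earlier results of these data known. Over all of them 89 of 199 tested genes fell, or 44.7%, and 27 rose, or 13.6% (median log2 fold change -0.09). Among all genes the shares were 21.1% and 20.2%. ATF4 targets gave 13 of the 27 rises and 7 of the 89 falls. Collagen-modification genes gave 21 of the falls and 0 rises. The pooled shares are thus not those of ER genes alone. In the list of other folding factors 19 of 30 fell and 1 rose: the disulfide enzymes Pdia5 (-0.69 ± 0.07) and Dnajc10 (-0.66 ± 0.04) fell, and Tmx2 (0.27 ± 0.04) rose. Among signal recognition, translocon and N-glycosylation genes 16 of 32 fell and 0 rose, with 0 also at an unadjusted p under 0.05 in edgeR and at an adjusted p under 0.05 in DESeq2. The oligosaccharyltransferase subunits Ddost (-0.61 ± 0.04), Rpn2 (-0.48 ± 0.04) and Ostc (-0.41 ± 0.05) had its lowest log2 fold changes past 10 CPM.

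Collagen modification and cross-linking genes fell in 21 of 25 cases, and 0 rose (0 also at an unadjusted p under 0.05 in edgeR and at an adjusted p under 0.05 in DESeq2). The procollagen proteinases Bmp1 (-0.79 ± 0.05) and Adamts2 (-0.77 ± 0.04) and the enhancer Pcolce (-0.78 ± 0.04) had its lowest log2 fold changes past 10 CPM. ER-Golgi transport genes had 13 of 41 lower (31.7%) and 5 higher (12.2%), against 21.1% and 20.2% of all genes tested. Their median was -0.0058, and the cargo receptors Tmed3 (-0.45 ± 0.04) and Mcfd2 (-0.41 ± 0.04) were among the lower genes. Other degradation genes had 7 of 17 lower (41.2%) and 4 higher (23.5%) in edgeR but 4 lower and 4 higher in DESeq2. Among them the lectin Os9 (-0.36 ± 0.04) was lower and Derl1 (0.29 ± 0.04) higher. Other UPR regulators had 6 of 22 lower (27.3%) and 4 higher (18.2%), near the 21.1% and 20.2% over all genes tested. Their median was 7.9e-05, and the constitutive phosphatase subunit Ppp1r15b (0.19 ± 0.03) rose.

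Of 32 ATF4 target genes tested 13 rose, or 40.6%, and 7 fell, or 21.9%. Among all genes tested 20.2% rose and 21.1% fell, so the falls on this list stood near the share over all genes. The list had a median log2 fold change of 0.03, and its summed CPM was 110% to 111% of the control mean in the 3 U-IRX3ov libraries. Vldlr, a lipoprotein receptor (0.70 ± 0.04), the adipogenic factor Cebpb (0.68 ± 0.04) and the mitochondrial protease Lonp1 (0.54 ± 0.04) rose. Ddit4, an inhibitor of mTORC1 (-0.33 ± 0.07), and Tnfrsf10b, a death receptor (-0.29 ± 0.06), fell. Several of these genes have other known regulators in adipocytes, so the list is not a readout of ATF4 alone.

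Some of these counts are uncertain because members share exons with other annotated genes and the strand setting of the counting is not given. In the GENCODE annotation of GRCm38, exons of Ddit3 overlap Mars, those of Atf5 overlap Nup62, those of Ppp1r15a overlap Tulp2, those of Pdia3 overlap Catsper2, those of Plod3 overlap Znhit1, those of Ppib overlap Snx22 and those of Fkbp10 overlap Nt5c3b, each on the other strand. The same holds for Pdia6 and Atp6v1c2, Manf and Dcaf1, Atf5 and Il4i1, and, with microRNAs or gene models known by number alone, for Hsp90b1, Dnajb9, Plod2, Eif2ak3, Sec61a1 and Sec23a. Overlaps on the same strand, which no strand setting separates, were annotated for Manf with Rbm15b, for Hsp90b1 with Gm15344 and Gm25745, for Pdia4 with Mir704, for Plod3 with Mir702 and for Ddit3 with a further entry of that symbol. Hspa5 (chromosome 2, 34771970 to 34777547, plus strand), Calr (chromosome 8, 84841850 to 84846934, minus strand), Serpinh1 (chromosome 7, 99345376 to 99353239, minus strand), Ero1l (chromosome 14, 45283087 to 45318771, minus strand) and Plod1 (chromosome 4, 147909753 to 147936767, minus strand) had no exon in common with another annotated gene.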

How the data were processed

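For 6 libraries, 3 control and 3 U-IRX3ov by their labels, the authors deposited whole-number counts for each gene symbol. Reads were aligned with HISAT2 2.0.4 to mm10 according to the submitters' processing notes. Not given in the sources used here are the counter, its annotation and its strand setting. Genes low in counts were removed with filterByExpr, libraries were scaled by TMM, and U-IRX3ov was tested against control with edgeR 4.0.16 in R 4.3.3 (robust quasi-likelihood F test, group as the only term, Benjamini-Hochberg over 14757 genes). A standard error is the fold change (log2) over the root of its F statistic, and 95% intervals use the degrees of freedom of that test. An exact permutation test of 3 against 3 cannot go below p = 0.1. Levels per kilobase used union exon lengths of GENCODE M21 (GRCm38, the assembly of mm10). Promoters came from RefSeq GRCm38.p6, with Ero1l matched as Ero1a. Chi-square per degree of freedom between replicates was 2.92 to 4.91, more than counting noise, and no 2 were taken as 1 library.

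The 46 genes and all lists were chosen with earlier results of these data known. All 46 genes are reported. Values in every library are given for 12 genes named in the design and for the 5 largest falls and 4 rises past the threshold, and, as additions after the values were seen, Ern1. Of the further lists up to 3 genes in each direction with the largest change and at least 10 CPM are named. Protein sequences were not used here. The fit was tested on simulated data of 14757 genes, in which 56% of genes changed 1.3-fold and 86% changed 1.5-fold were recovered. Only 50 genes were changed at each fold, whereas 41.3% of genes were called in these data. The recovered shares therefore describe neither these data nor the 46 genes. Alternatives were DESeq2 1.42.0, limma-voom (limma 3.58.1), other scalings and filters, other thresholds, a replicate block and leaving out each library.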

Additional observations from a re-analysis of the deposited data

How the results depend on the processing

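Of the 46 genes 31 kept their call (lower, higher or not passed) under all 15 alternatives, and 0 calls reversed. Of those that did not pass, P4ha2, Ddit3 and Chac1 changed sign between alternatives. Their log2 fold changes ran from -0.008 to 0.055, from -0.040 to 0.079 and from -0.203 to 0.014. Apart from the stricter threshold of 0.01 and the test against a 1.2-fold change, 42 genes kept their call under the other 13 alternatives. Atf5, Sec61b, Sec23a and Ern1 were the exceptions. The test against a 1.2-fold change, which asks for more than any difference, called 17 of the 46 genes lower and 2 higher. It called 32 genes of the further lists lower and 8 higher, and 1495 genes lower and 1121 higher among all tested. Among the 46 it kept no call for degradation, translocon or COPII genes. The median log2 fold change of the 46 genes was -0.22 under upper-quartile scaling, which shifted the median of all genes from -0.0047 to -0.021. Without 1 library it ran from -0.22 to -0.18, lowest without control library 1 and highest without U-IRX3ov library 3, while 27 to 29 genes were lower and 3 or 4 higher. Titles number the libraries of both groups, but same-numbered libraries did not consistently deviate together (correlations across 9501 genes of -0.096, 0.173 and -0.0051). Pairs of unlike number ran from -0.148 to 0.148. The number is therefore not taken as a pairing, and whether libraries of the 2 groups shared a culture or batch was not tested. With the replicate number as a block, 29 of the 46 genes were lower and 4 higher, as without it. Depth limits the rarer mRNAs most: Chac1, Sdf2l1 and P4ha3 had under 30 CPM on average in both groups. Creld2 (23.0 CPM), Ern1 (27.5 CPM) and Sec61b (28.2 CPM) did so in U-IRX3ov cells only.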
